A study of Bos taurus with 2 samples.

Results

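The most abundant small RNA reads of bovine liver that were too long to reach the 3′ adapter were examined in 2 libraries, 1 from a line selected for low residual feed intake (RFI) and 1 from a line selected for high RFI. RFI is feed intake after the need for body size and growth has been subtracted, so that animals with a low value are the efficient ones. A member was any sequence tag of 35 nt, present in the tag counts of both libraries together at 1000 reads or more, in which the first 6 nt of the Illumina v1.5 small RNA adapter were not found with at most 20% of mismatches in the rest. Of 1941596 distinct tags, 760833 held no adapter by this rule and 502 of those reached 1000 reads. All 502 members were read in the low-RFI library and 500 in the high-RFI library. Grouped by their first 20 nt, they formed 339 groups. The reads that chose the members are the same reads that are described here, so their levels are given without a test. At the threshold, the last 3 tags inside held 1007, 1004 and 1000 reads, and the first 3 outside held 998, 994 and 991.

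Both libraries were made from liver biopsies of Angus bulls aged 13 months. Each pooled the RNA of 13 animals, 1 ug from each, from cattle lines bred in opposite directions for RFI. With 1 pooled library per line there is no spread between animals or between libraries, and no p-value is given. The low-RFI library held 12196461 reads and the high-RFI library 14117842, so that intervals for counting error are narrow. These intervals, at the 95% level, cover counting error only, and amplified reads without molecular identifiers are not independent molecules. The liver-specific miR-122, recognised by its sequence, made up 4.27% of reads in the low-RFI library and 1.97% in the high-RFI library. In such bulk tissue, fewer cells of a type and less RNA per cell cannot be told apart.

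Reads of this length in a small RNA library come mostly from pieces of longer structural RNAs. A transfer RNA cut in its anticodon loop leaves a 5′ piece and a 3′ piece, and the 5′ pieces of some isotypes are abundant in liver and other tissues. Ribosomal RNA is built from the 18S RNA of the small subunit and the 28S, 5.8S and 5S RNAs of the large subunit, and small nucleolar RNAs of the box C/D class guide its methylation.

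The sequences that carry the comparisons are shown as DNA, 5′ to 3′, each being the most abundant tag of its group. Capitals do not mark adapter, which starts with ATCTCG. The letters behind the last tgc in Gly-GCC and its copies match this start, as does the last a of Gln-CTG. So do the last at of Lys-TTT and the last atc of the most abundant 28S tag. These letters can be adapter and are not to be read as RNA. The first set holds the 5′ tRNA pieces, with a close copy below its parent, because this class was higher in the high-RFI library in sum. Gly-GCC, Gln-CTG and Lys-TTT were higher in that library, whereas Cys-GCA and Leu-CAG were higher in the low-RFI library by RPM. Capitals mark the stretch in which the close copies differ from their parent, positions 6 and 7 in Gly-GCC and 17 to 19 in Cys-GCA. In Leu-CAG, shown without a copy, the capital marks position 27, at which reads of the group vary. None are marked in the last pair.
tRNA-Gly-GCC: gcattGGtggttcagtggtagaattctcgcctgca
tRNA-Gly-GCC lacking 1 G: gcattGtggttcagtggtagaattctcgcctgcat
tRNA-Gly-GCC with a substitution: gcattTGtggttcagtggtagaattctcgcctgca
tRNA-Cys-GCA: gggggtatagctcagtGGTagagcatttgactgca
tRNA-Cys-GCA lacking 1 T: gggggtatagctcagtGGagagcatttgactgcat
tRNA-Leu-CAG: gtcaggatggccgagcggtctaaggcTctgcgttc
tRNA-Gln-CTG: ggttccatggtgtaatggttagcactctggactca
tRNA-Lys-TTT: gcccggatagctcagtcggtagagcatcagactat

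The second set holds pieces of 5.8S rRNA, intact and joined, because the joined form had the highest ratios among the 20 most abundant groups. Capitals mark TAGC, the stretch at which the joined form leaves the order of the intact RNA.
5.8S intact: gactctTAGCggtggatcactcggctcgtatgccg
5.8S joined: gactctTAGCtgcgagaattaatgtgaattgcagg
5.8S intact, start 6 nt upstream: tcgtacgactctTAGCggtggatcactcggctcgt
5.8S joined, start 4 nt upstream: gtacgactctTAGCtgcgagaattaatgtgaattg
5.8S joined, start 6 nt upstream: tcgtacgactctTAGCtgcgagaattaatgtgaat

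The third set holds the leading piece or the piece with the highest ratio of other RNAs. The capital in the tRNA-Arg-TCG piece marks position 23, the base of the T loop described further on.
18S, most abundant: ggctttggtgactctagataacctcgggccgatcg
18S, next in abundance: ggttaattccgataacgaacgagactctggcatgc
28S, most abundant: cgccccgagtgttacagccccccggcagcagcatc
28S, highest ratio: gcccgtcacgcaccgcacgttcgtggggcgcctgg
5.8S inner part: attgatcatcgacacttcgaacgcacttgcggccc
5S, highest ratio: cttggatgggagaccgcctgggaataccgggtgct
tRNA-Arg-TCG 3′ piece: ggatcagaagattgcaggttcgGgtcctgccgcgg
mitochondrial 16S: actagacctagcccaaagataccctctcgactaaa
mitochondrial 12S: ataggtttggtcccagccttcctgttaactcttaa

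The names come from recognition of well-known RNAs by sequence after the values had been seen. The member tags made up 28.15% of all reads in the low-RFI library (exact interval 28.13% to 28.18%) and 23.69% in the high-RFI library (23.66% to 23.71%). Within them, 5′ tRNA pieces took 39.3% of member reads in the low-RFI library and 75.7% in the high-RFI library. Cytosolic rRNA, its joined form included, took 50.4% and 18.6%. Among member reads, rRNA pieces were thus the largest class in the low-RFI library and 5′ tRNA pieces in the high-RFI library. Members held 68.7% of all reads without adapter in the low-RFI library and 76.2% in the high-RFI library.

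Levels were compared as reads per 1000000 reads of each library (RPM). By RPM, 235 of the 339 groups were higher in the low-RFI library by 1.5-fold or more and 43 were higher in the high-RFI library by as much. Over all 936 groups of tags with 1000 reads or more and inserts of 20 nt or longer, the shares were 53.4% and 19.8%. The member groups are among those 936, and their own shares were 69.3% and 12.7%. The counts given below for each class of RNA are to be read beside these shares. The median group was 2.02-fold higher in the low-RFI library, beside 1.58-fold over all 936.

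How the libraries are scaled decides much of this count. Scaling by edgeR's TMM factors over the groups lowered every log2 ratio of low RFI over high RFI by 0.99, and DESeq2 size factors lowered it by 1.01. Of the groups past 1.5-fold, 84.5% were higher in the low-RFI library by RPM, 55.1% with TMM (102 against 83 groups) and 54.3% with DESeq2 size factors (102 against 86). A group that was less than about 2-fold higher in the low-RFI library therefore changed direction under both, whereas a group higher in the high-RFI library kept its direction. Ratios are by RPM unless another scaling is named, and the count under TMM is given beside each class.

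The 5′ pieces of cytosolic tRNAs formed 58 groups of 137 tags. They held 1349948 reads in the low-RFI library and 2532948 in the high-RFI library, 1.621-fold higher in the high-RFI library (1.618 to 1.624). By 1.5-fold or more, 26 of the 58 groups were higher in the high-RFI library, 9 in the low-RFI library and 23 in neither, and with TMM 40 were higher in the high-RFI library and 0 in the low-RFI library. The excess lay in 1 isotype. Pieces of tRNA-Gly-GCC, a glycine carrier, held 943547 and 2133417 reads, 27.5% and 63.8% of member reads, and were 1.95-fold higher in the high-RFI library in sum. All other 5′ pieces together held 406401 and 399531 reads, 1.18-fold higher in the low-RFI library by RPM, a direction that turned when scaled to member reads (1.01-fold higher in the high-RFI library) and with TMM (1.69-fold).

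The main Gly-GCC group had 650940 reads in the low-RFI library and 1493780 in the high-RFI library and was 1.98-fold higher in the high-RFI library (1.98 to 1.99). Its copy lacking 1 G had 235712 and 507793 reads, 1.86-fold higher (1.85 to 1.87). The copy with the substitution G6T, positions being counted from 1 at the tag's 5′ end, had 26007 and 54642 reads, 1.82-fold higher (1.79 to 1.84). All 3 forms were higher in the same library by nearly the same ratio. The copies were common in both libraries, the form lacking 1 G standing at 36.21% of the main group in low RFI and 33.99% in high RFI. Of the 18 Gly-GCC groups 17 were at least 1.5-fold higher in the high-RFI library, and the remaining one, with T5G, was 1.18-fold higher there. All but the main group differed by 1 change from it or from the copy lacking 1 G, so they cannot be counted as independent cases. They supply 17 of the 26 groups of 5′ tRNA pieces that were higher in the high-RFI library.

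Other isotypes spread on both sides. Histidine tRNA pieces (tRNA-His-GTG) had 6076 reads in the low-RFI library and 13746 in the high-RFI library, 1.95-fold higher in the high-RFI library. Lysine tRNA pieces of anticodon CTT had 4372 and 12017 reads, 2.37-fold higher there, and the tRNA-Ala-CGC group had 1704 and 4905, 2.49-fold higher. Initiator methionine tRNA, which starts translation, had 823 and 1511 reads, 1.59-fold higher in the high-RFI library. Smaller differences in that direction were seen for Gly-CCC with 15570 and 25094 reads (1.39-fold), Arg-CCG with 6803 and 11667 (1.48-fold) and Val-CAC with 21095 and 27526 (1.13-fold).

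Among 5′ tRNA pieces the extreme ratios belonged to a glutamine and a lysine tRNA. The Gln-CTG group had 365 reads in the low-RFI library and 4748 in the high-RFI library, 11.2-fold higher in the high-RFI library (10.1 to 12.5). Its most abundant tag, the one shown, had 71 and 2343 reads. The Lys-TTT tag had 261 and 2947 reads, 9.75-fold higher (8.59 to 11.1). The other Lys-TTT groups, which start a few bases upstream of the tag shown, had different ratios. That with 949 and 1125 reads lay near parity, and that with 1039 and 625 was 1.92-fold higher in the low-RFI library by RPM.

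Other isotypes were higher in the low-RFI library by RPM, of which 5 are given. For Cys-GCA the counts were 61840 in the low-RFI library and 57186 in the high-RFI library, 1.25-fold higher in the low-RFI library (1.24 to 1.27), and its copy lacking 1 T had 36491 and 29117, 1.45-fold higher. Leu-CAG, with 33613 and 25288 reads, was 1.54-fold higher (1.51 to 1.56), and proline tRNA, with 8280 and 5393, was 1.78-fold higher (1.72 to 1.84). Asp-GTC had 3114 and 1886 reads (1.91-fold), and Val-TAC had 1444 and 757 (2.21-fold). With TMM all of these except Val-TAC lay below parity.

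The close copies had positions of their own. Of the 339 groups, 50 differed by 1 change at position 2 or later from a more abundant group, 37 by a substitution, 10 by a deletion and 3 by an insertion. In Cys-GCA the changes gathered at position 19, where T19C stood at 13.4% of the parent in low RFI and 12.9% in high RFI, T19A at 10.2% and 8.81%, and T19G at 9.42% and 9.18%. Among Leu-CAG reads that were otherwise identical over 30 nt, position 27 held another base than T in 43.0% in the low-RFI library and 45.5% in the high-RFI library. At position 9 of Arg-CCG another base stood in 39.3% and 39.8%. Each of these shares differed by under 3 percentage points between the libraries, but not every copy did so. The Cys-GCA copy lacking 1 T at position 19 stood at 59.0% of its parent in low RFI and 50.9% in high RFI. A Lys-TTT copy, A2T, stood at 109% and 55.6%, and a mitochondrial tRNA-Trp copy, A9G, at 51.2% and 69.6%. Pieces of rRNA varied in the share of reads with another base at a position. In the most abundant 18S piece the highest such share at any position was 0.307% and 0.370%, and in the next 0.969% and 0.951%. Position 8 of the joined 5.8S group that starts 2 nt upstream of gactct reached 6.33% and 4.88%. In the intact 5.8S group that starts at gactct it was 25.3% and 20.7% at position 30, where that tag passes into the adapter.

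The 3′ ends of the Gly-GCC pieces differed between the libraries. Inserts of 34 nt, whose last base before the adapter's first base is the C of TGC, held 402014 reads in the low-RFI library and 1106906 in the high-RFI library, 60.6% and 73.0% of those assigned a length. Inserts of 32 nt held 145061 and 176923 reads, 21.9% and 11.7%. By RPM the 34 nt form was 2.38-fold higher in the high-RFI library (2.37 to 2.39) and the 32 nt form 1.05-fold higher (1.05 to 1.06). Inserts that filled all 35 nt, with 29267 and 31610 reads, were instead 1.07-fold higher in the low-RFI library.

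Such a length difference recurred. Over all tags with the same first 20 nt, whatever their reads, inserts were split into 30 to 34 nt and 35 nt or longer. Close copies with a change at position 2 or later were left out, as were groups with under 50% of reads assigned a length or under 200 reads in a length class. A copy with another base at position 1 was kept and is among the 13 groups below. That left 16 groups of tRNA pieces, some of the same isotype. In 13 the ratio of low RFI over high RFI was higher for the longer inserts, with intervals apart. The exceptions were His-GTG, Val-TAC and the mitochondrial proline tRNA. His-GTG went the other way, 1.35-fold higher in the low-RFI library for the shorter inserts and 1.95-fold higher in the high-RFI library for the longer ones. For Gln-CTG, inserts of 30 to 34 nt had 200 and 4479 reads, 19.3-fold higher in the high-RFI library, and longer ones 254 and 795, 2.70-fold higher. In Lys-TTT the shorter inserts had 591 and 3501 reads (5.12-fold) and the longer ones 165 and 260 (1.36-fold).

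A member group can stand for many genes. The RefSeq annotation of the ARS-UCD2.0 assembly lists 59 tRNA genes for Gly-GCC, 247 for Cys-GCA, 248 for Gly-CCC and 21 for Gln-CTG, so a 5′ piece could not be given to 1 locus.

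Cytosolic rRNA made 142 groups, 124 of them at least 1.5-fold higher in the low-RFI library and 3 higher in the high-RFI library. Without the joined 5.8S form, the 127 remaining groups held 1064644 reads in the low-RFI library and 520180 in the high-RFI library, 2.37-fold higher in the low-RFI library (2.36 to 2.38). With TMM the fold for these was 1.19, and 39 groups were higher in the low-RFI library and 15 in the high-RFI library.

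Pieces of 5.8S rRNA that keep the usual order numbered 20 groups with 432834 and 192649 reads, 2.60-fold higher in the low-RFI library, and all 20 passed 1.5-fold by RPM (6 with TMM, and 0 in the other direction). The intact group that starts at gactct had 95498 and 42901 reads, 2.58-fold higher (2.55 to 2.61). Inner pieces with a start at attgat had 40595 and 12005 reads, 3.91-fold higher, and those that start 1 nt and 2 nt upstream had 37160 and 8772 (4.90-fold) and 31865 and 8290 (4.45-fold). A piece from further downstream, with a start at tcctcc, had 36787 and 20990 reads, 2.03-fold higher (1.99 to 2.06).

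The joined 5.8S form was the clearest contrast in rRNA. Its tags read the first 10 bases of the intact piece and then a stretch that, in intact 5.8S rRNA, follows further downstream. The bases TAGC, 4 nt, are common to both sides of the join, and the last 29 bases are shared with an intact group. Each of its 15 groups passed 1.5-fold in the low-RFI library, with TMM as well. In sum the joined groups held 665140 reads in the low-RFI library and 101726 in the high-RFI library, 7.57-fold higher in the low-RFI library (7.52 to 7.62) and 3.81-fold with TMM.

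Reads across the join were also counted over all tags, of any abundance. There were 651778 in the low-RFI library and 100174 in the high-RFI library, 5.34% and 0.710% of all reads. Intact reads across the same left side numbered 300024 and 150966, 2.30-fold higher in the low-RFI library. Intact reads across the right side were far fewer, 3126 and 619, 5.85-fold higher in the low-RFI library (5.36 to 6.38). That ratio is nearer to the 7.53-fold of the reads across the join. Of reads that were joined or intact at the left side, 68.5 in 100 were joined in low RFI and 39.9 in 100 in high RFI. This share does not depend on the scaling of the libraries. Whether the join was present in the RNA or arose in library preparation was not tested.

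The ratio of the joined form differed with the start of the piece. With no base upstream of gactct, the joined group had 249950 and 49476 reads, 5.85-fold higher in the low-RFI library (5.79 to 5.90). With 1 base more it had 187330 and 31279 (6.93-fold), with 2 bases 66822 and 8907 (8.68-fold) and with 3 bases 25962 and 2245 (13.4-fold). With 4 bases it had 65989 and 4067 reads, 18.8-fold higher (18.2 to 19.4), and with 6 bases 30359 and 1662, 21.1-fold higher (20.1 to 22.2). With 5 and 7 bases the folds were 18.98 and 18.37. The intact groups with the same starts lay between 2.04-fold and 2.58-fold, with 62698 and 32316 reads at 1 base more (2.25-fold) and 33730 and 19109 at 6 (2.04-fold). A further copy of the 4-base form with T10C had 1294 and 57 reads, 26.3-fold higher (20.2 to 34.9), the highest ratio outside the nearly confined groups described at the end.

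Start positions also separated pieces of 28S and 5S rRNA. The 28S pieces that start at cgcacc had 7664 and 4013 reads, 2.21-fold higher in the low-RFI library. Those that start 8 nt upstream had 6211 and 350, 20.5-fold higher (18.4 to 22.9), and 9 nt upstream 6531 and 380, 19.9-fold higher. At 7 nt upstream the fold was 13.9, and at 3, 2 and 1 nt upstream it was 3.06, 2.27 and 2.27. In 5S rRNA the pieces that start at atggga had 3128 and 1127 reads (3.21-fold), and those 5 nt upstream 2898 and 147, 22.8-fold higher (19.3 to 27.1). At 6, 4 and 3 nt upstream the 5S pieces were 21.0-fold, 17.8-fold and 10.9-fold higher, whereas 1 nt upstream 1268 and 1743 reads were found, 1.19-fold higher in the high-RFI library. A few bases of offset thus went with ratios of very different size from the same RNA.

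The 18S RNA gave 28 groups with 281819 and 134744 reads, 2.42-fold higher in the low-RFI library, 27 of them past 1.5-fold (8 with TMM, 1 in the other direction). The leading group had 103783 and 35697 reads, 3.37-fold higher (3.33 to 3.41). The next had 69794 and 41112, 1.96-fold higher by RPM but 0.02 below parity on the log2 scale with TMM. In 28S, 67 groups held 315902 and 181077 reads, 2.02-fold higher, and 52 passed 1.5-fold (16 with TMM, 12 in the other direction). The most abundant 28S group had 42758 and 22392 reads, 2.21-fold higher (2.18 to 2.25). In 5S, 12 groups held 34089 and 11710 reads, 3.37-fold higher, and 10 passed 1.5-fold (9 with TMM, 2 in the other direction). Of all 339 member groups, 235 passed 1.5-fold in the low-RFI library (102 with TMM, 83 in the other direction).

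The label of long tags without adapter did not hold for every member. Of the 502 tags, 39 held inner bases of the adapter whose first 6 nt had not been matched, and these carried 4.54% of member reads in the low-RFI library and 3.37% in the high-RFI library. The adapter letters in front of these inner bases were changed or lacking, so these inserts were shorter than the label says. In 5.8S rRNA, the intact piece and the adapter share 5 nt at the place where the tag passes into the adapter, as in the first intact tag shown. That form had 115861 reads in the low-RFI library and 57557 in the high-RFI library, 73.3% and 79.6% of the reads that pass this place, and reads that go on in the RNA had 42237 and 14713. In 28S, a similar passage had 20871 and 30170 reads, 69.6% and 88.6%. All 3 of the 28S groups that were at least 1.5-fold higher in the high-RFI library were of this form, with 5328 and 9765, 1333 and 3902, and 529 and 4512 reads. A further 102 tags ended in the first 3 to 5 nt of the adapter, with 18.04% and 21.72% of member reads, which leaves inserts of 30 to 32 nt if those letters are adapter.

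Tags of microRNAs were members for the same reason. The 4 groups, of 12 tags, all held inner adapter bases. For miR-143 there were 3744 reads in the low-RFI library and 12486 in the high-RFI library, 2.88-fold higher in the high-RFI library, and for miR-148a 457 and 976, 1.85-fold higher. The miR-122 tags had 2990 and 2143 reads, 1.62-fold higher in the low-RFI library. For miR-30a they had 666 and 955, 1.24-fold higher in the high-RFI library.

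The 3′ pieces of cytosolic tRNAs went the other way from the 5′ pieces of Gly-GCC. Their 23 groups held 32046 reads in the low-RFI library and 13646 in the high-RFI library, 2.72-fold higher in the low-RFI library (2.66 to 2.77). In that library 19 passed 1.5-fold against 1 in the high-RFI library (6 against 4 with TMM). Over all 339 groups the counts were 235 against 43 (102 against 83 with TMM). The Arg-TCG group with the highest ratio had 2617 and 140 reads, 21.6-fold higher (18.3 to 25.8). Arg-CCG had 2289 and 240 reads (11.04-fold), the largest of 3 Arg-CCT groups 4101 and 494 (9.61-fold) and Val-TAC 1375 and 155 (10.3-fold). The other Arg-CCT groups, with 511 and 604 reads and with 468 and 630, were 1.02-fold and 1.16-fold higher in the high-RFI library. All 8 Arg-TCG groups together had 10499 and 4939 reads, 2.46-fold higher in the low-RFI library. The Lys-TTT 3′ piece had 362 and 816 reads, 1.95-fold higher in the high-RFI library, in the direction of the Lys-TTT 5′ tag shown.

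In these 3′ pieces the letters GTTC and a purine span the start of the T loop, and the next base of a tRNA gene is an A. It was read as G or T in 18 of the 23 groups and as A in the other 5, all of Asp-GTC or Val-TAC. In the Arg-TCG group shown, over all tags with the same letters around it, the base at position 23 was G in 45.9% in the low-RFI library and 41.0% in the high-RFI library, T in 43.9% and 48.4%, and A in 8.51% and 6.83%. In the Val-TAC piece A stood in 71.1% and 69.6%. The mix of bases differed more between isotypes than between the libraries.

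Mitochondrial tRNA pieces made 12 groups with 35618 and 16630 reads, 2.48-fold higher in the low-RFI library. Of these, 9 were past 1.5-fold (6 with TMM, 3 in the other direction), beside 235 of all 339 groups (102 with TMM). The largest, on the strand opposite to mitochondrial tRNA-Gln, had 12196 and 3874 reads, 3.64-fold higher (3.51 to 3.78). Tags with the opposite strand of that group itself had only 77 and 637 reads. The main group of mitochondrial tRNA-Tyr had 6507 and 3027 reads (2.49-fold), that of tRNA-Trp 2166 and 365 (6.87-fold) and that of tRNA-Asn 1669 and 407 (4.75-fold). Mitochondrial tRNA-Met had 3546 and 2579 reads, 1.59-fold higher, and tRNA-Leu 3415 and 2326, 1.70-fold higher. The tRNA-Gln group, with 1387 and 1743, and the main tRNA-Pro group, with 791 and 792, differed by under 1.5-fold.

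Shorter pieces of several of these mitochondrial tRNAs, which carry the adapter and are not members, were higher in the high-RFI library. With adapter, mitochondrial tRNA-Pro pieces had 3277 reads in the low-RFI library and 30310 in the high-RFI library, 7.99-fold higher in the high-RFI library. For tRNA-Gln they had 1023 and 6045 (5.10-fold), for tRNA-Tyr 614 and 3595 (5.06-fold) and for tRNA-Trp 132 and 743 (4.86-fold). For tRNA-Leu and tRNA-Asn the difference was smaller (1.35-fold and 1.21-fold), for tRNA-Met the interval included parity (0.932 to 1.27), and the strand opposite to tRNA-Gln, with 2420 and 1369 reads, was 2.05-fold higher in the low-RFI library. When every tag with the same first 20 nt was counted, of whatever length, 3 of the 12 mitochondrial groups were past 1.5-fold in the low-RFI library and 3 in the high-RFI library. The direction seen in the long pieces was therefore not that of all pieces of these tRNAs.

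Some long mitochondrial 5′ pieces held the letters CCAC, which contain the CCA found at the 3′ end of every mature tRNA. Whether they are such an end was not tested. Among reads without adapter that share the first 26 nt of the tRNA-Tyr piece, 51.65% in the low-RFI library and 26.97% in the high-RFI library held CCAC near the tag end. For tRNA-Trp the shares were 96.2% and 80.2%, and for tRNA-Met 67.0% and 69.0%, slightly higher in the high-RFI library. The tRNA-Met share is not the same measure. A form of it without CCAC, ending in GGGCCCATAC (470 and 237 reads), already holds CCA. Any C behind that CCA is therefore counted, as in the form ending in GGGCCCACAA (517 and 597). For the other mitochondrial tRNA pieces examined the share was at most 0.242% in either library. Over all reads without adapter the same letters stood there in 0.794% and 0.504%. The most abundant such form of tRNA-Tyr had 3809 and 1085 reads, 4.06-fold higher in the low-RFI library, while a form without CCAC, whose last 3 letters are the first 3 of the adapter, had 1564 and 1685, 1.07-fold higher.

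Mitochondrial rRNA gave 1 group from each RNA. That of 16S had 6786 and 2710 reads, 2.90-fold higher in the low-RFI library (2.77 to 3.03), and that of 12S had 1979 and 838, 2.73-fold higher (2.52 to 2.97). With TMM neither passed 1.5-fold, and both stayed above parity.

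Box C/D small nucleolar RNAs were sought by the letters TGATGA, the core of box C, on the strand read and within the first 15 nt. Of the 339 groups 33 held them, 9.73%, beside 5.02% of all 936 groups. In 17 of the 33 the letters CTGA, the core of box D, also stood behind base 15. The 33 groups held 77104 reads in the low-RFI library and 43408 in the high-RFI library, 2.06-fold higher in the low-RFI library. Past 1.5-fold were 26 of them, with 1 in the other direction (13 and 5 with TMM), beside 235 and 43 of all 339 groups. The most abundant had 11569 and 7247 reads (1.85-fold), and the highest ratio was 14.1-fold, at 4329 and 356 reads. The exception, with 365 and 2252 reads, was a tag that runs into the adapter. Y RNAs, which bind the Ro protein, were sought by the letters GGTCCGA near their 5′ end, also within the first 15 nt. No member group held them, beside 0.321% of all 936 groups. Outside the members 647 tags without adapter held those letters, with 5028 and 2179 reads in sum.

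Unnamed groups are given by counts. In 48 groups, with 147580 and 82275 reads, no name was given, and 31 were past 1.5-fold in the low-RFI library and 8 in the high-RFI library (14 and 10 with TMM). The 3 unnamed groups farthest toward the high-RFI library had 39 and 1257, 67 and 1038, and 88 and 933 reads. Another 6 groups, with 20413 and 11587 reads, held adapter or primer letters alone. A further 10 groups were nearly confined to 1 library, by a ratio of 32-fold or more or by under 10 reads in the other. Of these, 9 had 23500 reads in the low-RFI library and 35 in the high-RFI library in sum, and 1 had 15 and 1083. Their origin was not established and their sequences are not reported.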

How the data were processed

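Small RNA of 2 pooled liver libraries was prepared with the Illumina Alternative v1.5 small RNA protocol and read for 36 cycles on a Genome Analyzer IIx, per the labels' protocols. As deposited by the authors, each file lists distinct tags of 35 nt with an unnormalized count, and the 3′ adapter is still part of each tag. The submitters' processing notes name Bowtie without version or role, and no build is named in the sources used here. Depth came to 12196461 reads for low RFI and to 14117842 for high RFI.

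The adapter was derived from the tags and located by its first 6 nt (exact) with at most 20% mismatches behind them. Counts of tags with 1000 reads or more were summed by first 20 nt and divided by all reads of the library. A ratio of 1.5-fold was the size used for calls. Intervals were exact, by Clopper-Pearson for shares and by the conditional binomial for ratios (Python 3.11.15, scipy 1.17.1). Scalings by TMM (edgeR 4.0.16) and size factors (DESeq2 1.42.0) were alternatives, used without their tests, as were other limits on reads, prefix, adapter match and fold. The scripts were tested on simulated data. The members and lists were chosen with earlier results of these data known, and RNA names were given by recognition after the values were seen. The text names the 20 most abundant groups, then 5 ratios at each end, ordered by the interval bound nearest to 1, and every group of a class with 3 or fewer. Groups nearly confined to 1 library were then passed over. Of the groups that the rule takes, 2 of the 20 most abundant and the only group of 1 class are not reported here. Groups named beyond this rule (other tRNA isotypes, start positions, mitochondrial tRNAs, snoRNA and microRNA groups) were chosen after their values were seen.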

Additional observations from a re-analysis of the deposited data

How the results depend on the processing

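Scaling was the choice that moved the split between the libraries most. The groups past 1.5-fold in low RFI and high RFI numbered 102 and 83 with TMM, and 102 and 86 with DESeq2 size factors. The median log2 ratio was 0.77 when scaled to member reads, 0.026 with TMM, 0.0096 with DESeq2 size factors and 0.91 over all tags that share the first 20 nt. On the log2 scale, with TMM and then with DESeq2 size factors, these groups fell below parity: the next 18S group (-0.016 and -0.032), Leu-CAG (-0.37 and -0.39), Pro (-0.16 and -0.18), Asp-GTC (-0.056 and -0.072), a Lys-TTT copy (-0.046 and -0.063), mitochondrial tRNA-Met (-0.32 and -0.34) and tRNA-Leu (-0.23 and -0.24), miR-122 (-0.30 and -0.32) and the most abundant box C group (-0.10 and -0.12). Over all tags with its first 20 nt, 1 mitochondrial tRNA-Trp copy lay at -0.12. Of 329 groups not nearly confined to 1 library, 56 reversed with TMM and 65 with DESeq2 size factors, by the construction of these factors, and 135 kept their call under each. Other limits changed the number of groups: 443 and 98 at 500 reads per tag, 135 and 27 at 2000, and 307 and 74 with each tag on its own. With groups 1 substitution apart joined, 230 and 30 of 315 groups were past 1.5-fold. The share of all reads was 29.7% and 24.7% at 500 reads, 26.7% and 22.8% at 2000, 41.0% and 31.1% with no minimum, 27.6% and 23.0% with 5 adapter bases matched, and 29.2% and 25.3% with 8. With no minimum, the shares of member reads were 38.4% and 73.5% for 5′ tRNA pieces, 26.3% and 61.2% for Gly-GCC, 18.4% and 2.90% for joined 5.8S, and 31.23% and 16.05% for other cytosolic rRNA. No paired analysis was possible because each line was 1 pooled library, and for the same reason no library could be left out. Depth limits little here, since members hold 1000 reads or more, but the differences between the lines cannot be told apart from differences between these 2 libraries.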
